A study of Homo sapiens with 59 samples.

Results

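The integrins and laminins are 38 of the 19084 gene symbols measured in this time course. They were chosen by name: every symbol built as ITGA or ITGB plus the letter or number of a subunit, and every symbol built as LAMA, LAMB or LAMC plus a number. The 26 integrin genes comprise 18 alpha and 8 beta subunits, and the 12 laminin genes comprise 5 alpha, 4 beta and 3 gamma chains. Of the 38, 34 passed the filter on low values, 22 integrins and all 12 laminins. ITGAD, ITGAM, ITGB6 and ITGB7 did not pass it and were not tested, and ITGAM was listed at 0 in every library.

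The study sequenced RNA from 59 libraries of neural stem cells, all made from the established human embryonic stem cell line WA09 (H9). All libraries share one history: culture on Matrigel, a laminin-rich basement membrane extract, replating with the ROCK inhibitor Y27632, and FGF8b at 200 ng per mL. CHIR99021, which switches on WNT signalling by inhibiting GSK3, was then applied for one of 20 exposures of 2 to 72 h, spaced by 2 h on the first day and by 6 h later. After that every culture received retinoic acid for 4 days and was lysed, so each value describes cells 4 days after CHIR99021 was withdrawn. Replicates carry the labels A1, A2 and B1, which makes 3 libraries per exposure; 48 h has only A1 and A2. For the comparisons, exposures were grouped in a late window of 54, 60, 66 and 72 h, a first-day window of 18, 20, 22 and 24 h and an early window of 2, 4, 6 and 8 h, with 12 libraries each. Cells without CHIR99021 were not analysed here, and longer exposure also meant longer total culture, so exposure and age cannot be told apart. The labels do not say whether A1, A2 and B1 were separate cultures, so the p-values reflect library-to-library spread alone, and that spread may be technical.

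Laminins are cross-shaped secreted proteins, each built from 1 alpha, 1 beta and 1 gamma chain, that assemble into the sheet on which basement membranes form. Integrins are receptors of 1 alpha and 1 beta subunit that hold cells to laminin, collagen, fibronectin and other ligands and link them to actin through adaptors such as talin. In the embryonic neural tube the progenitors rest their basal feet on a basement membrane rich in laminins with the alpha1 and alpha5 chains, and alpha6beta1 integrin is a main laminin receptor of these cells.

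The promoters of 3 members are shown because the results turn on them: LAMB1 and LAMB2 encode the alternative beta chains, which took different courses on the first day, and ITGB8 was the member with the largest called rise between the early and late windows. Of the 38 members, 26 matched a RefSeq promoter of the GRCh38.p14 assembly, each running from 250 bases before to 50 bases after the gene start. Capitals mark matches on either strand to 5 short motifs: CTTTGA (the core bound by TCF and LEF factors of the WNT pathway), AGGTCA (the half-site of nuclear receptors, retinoic acid receptors among them), ACGTG (the hypoxia response core), GGGCGG (the GC box) and GGAATG (the TEAD core). The LAMB1 promoter lies at chr7:108003112-108003411 on the minus strand, the LAMB2 promoter at chr3:49133001-49133300 on the minus strand and the ITGB8 promoter at chr7:20330650-20330949 on the plus strand.
LAMB1: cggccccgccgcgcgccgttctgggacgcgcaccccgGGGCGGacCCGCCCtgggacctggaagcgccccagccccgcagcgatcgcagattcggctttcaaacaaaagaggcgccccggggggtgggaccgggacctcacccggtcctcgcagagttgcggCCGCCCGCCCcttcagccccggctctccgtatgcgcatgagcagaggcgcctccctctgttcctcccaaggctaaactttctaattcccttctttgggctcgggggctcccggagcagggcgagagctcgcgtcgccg
LAMB2: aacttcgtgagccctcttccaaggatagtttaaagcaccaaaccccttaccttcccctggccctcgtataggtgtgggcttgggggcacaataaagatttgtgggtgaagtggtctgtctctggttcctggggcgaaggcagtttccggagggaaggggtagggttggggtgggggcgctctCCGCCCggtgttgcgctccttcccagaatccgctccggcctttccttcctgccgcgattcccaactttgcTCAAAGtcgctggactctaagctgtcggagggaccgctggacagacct
ITGB8: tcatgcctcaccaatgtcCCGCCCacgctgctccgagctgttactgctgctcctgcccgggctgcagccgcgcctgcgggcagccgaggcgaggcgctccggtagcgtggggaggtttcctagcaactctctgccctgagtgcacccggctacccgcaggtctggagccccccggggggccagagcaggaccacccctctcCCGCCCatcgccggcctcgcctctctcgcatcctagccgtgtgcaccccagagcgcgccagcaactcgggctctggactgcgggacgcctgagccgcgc

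The LAMB1 window held 4 GC boxes, 2 of which overlap each other, and no match to the other motifs. The LAMB2 window held 1 GC box and 1 TCF and LEF core, read on the minus strand, and the ITGB8 window held 2 GC boxes. Among 27305 promoters of the same length, 44.6% held a GC box and 13.1% a TCF and LEF core. AGGTCA was in 13.9%, ACGTG in 21.6% and GGAATG in 14.0% of these promoters, and none of these motifs was in the 3 windows shown. Of the 26 members matched, 14 held a GC box and 5 (ITGA1, ITGAE, ITGAM, LAMA2 and LAMB2) the TCF and LEF core. A match describes letters only, and no binding was measured.

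Values are TPM, which adjust for gene length, so levels of different genes may be compared, but they keep no sequencing depth and the depth of each library is unknown. Neural progenitor markers were detected: the summed TPM of 10 of them was 3086 in the late window, 3548 in the first-day window and 3381 in the early window. The sum does not stand for each marker. In late minus early 6 of the 10 were higher and 2 lower, where 14.3% and 15.8% of all genes were, with a median log2 difference of 0.67. Libraries held 9348 to 13085 genes at 1 TPM or more, with a median of 12594, and 3 libraries had under 10000: B1 at 4 h, B1 at 42 h and A2 at 72 h. In those 3 libraries 19, 16 and 16 members were above 0, against at least 18 in each of the others, with a median of 25. These libraries also held the highest value of 8 members, among them ITGAX (14.5 TPM at 42 h, the next highest library having 1.31), LAMA3 (9.0 TPM at 72 h, next 3.87) and ITGB4 (6.65 TPM at 4 h, next 1.95). Member calls that differ without these 3 libraries are counted below for each comparison. In bulk samples fewer cells of a type and less RNA per cell cannot be told apart.

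**Figure D1:**
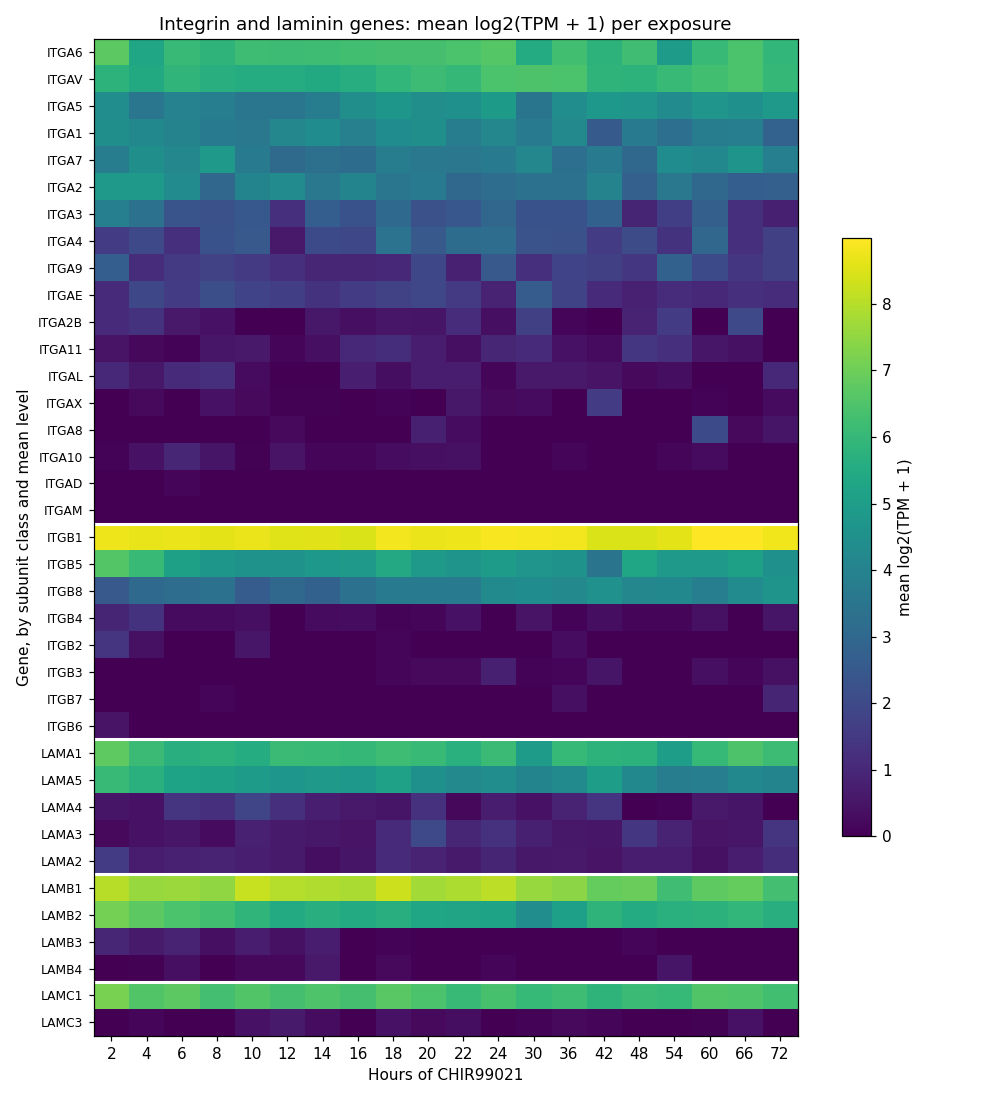
Mean log2(TPM + 1) of 37 integrin and laminin genes (rows, grouped by subunit class) at each of the 20 CHIR99021 exposures in hours (columns), 3 libraries per exposure and 2 at 48 h. ITGB1 is the brightest row at every exposure, LAMB1 darkens after 24 h, and LAMB2 and LAMA5 are brightest at 2 h.

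A small set of subunits carried most of the signal, as the map of members by exposure shows. The highest exposure mean was at least 5 TPM for 20 of 38 members, at least 50 TPM for 9 and at least 100 TPM for 6, namely ITGB1, LAMB1, LAMC1, LAMB2, LAMA1 and ITGA6. ITGB1, the common beta subunit that pairs with most alpha subunits, averaged 425 TPM over all libraries. Next came LAMB1 at 195 TPM, LAMC1, the main gamma chain, at 85.4 TPM, ITGA6 at 70.6 TPM, ITGAV at 63.1 TPM and LAMA1 at 62.8 TPM.

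The leukocyte subunits were close to absent. ITGAM was at 0 throughout, ITGAD was above 0 in 1 library, ITGB7 in 3 and ITGB2, the partner of the leukocyte alpha subunits, in 8 of 59. ITGAL and ITGAX were above 0 in 32 and 18 libraries, and ITGAX passed 5 TPM as an exposure mean only through the 42 h B1 library. ITGAE, which pairs with ITGB7 and binds E-cadherin, averaged 2.48 TPM. The epidermal laminin chains LAMA3 and LAMB3 averaged 0.956 and 0.268 TPM, and ITGB4, the receptor subunit of the hemidesmosome, averaged 0.383 TPM. Of 13 endothelial and blood markers, a list that includes the member ITGAM, GATA1, CD3E, ITGAM and PF4 were at 0 in every library. The others were detected, and 5 of the 13 passed the filter on low values. Of these 5, 2 were higher and 1 lower in late minus early, where 14.3% and 15.8% of all genes were. The summed TPM of the 13 ran between 11.77 and 39.99 in the early window and between 3.38 and 37.09 in the late window.

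Over the whole course 14 of 34 tested members changed, by limma's F-test on a smooth curve of hours at an adjusted p under 0.05, where 36.8% of all genes tested did. They were 8 of 22 integrins (ITGA2, ITGA3, ITGA5, ITGAV, ITGB2, ITGB4, ITGB5 and ITGB8) and 6 of 12 laminins (LAMA1, LAMA5, LAMB1, LAMB2, LAMB3 and LAMC1). The fitted curves of the 34 members spanned a median of 0.92 on the log2(TPM + 1) scale, against 0.90 for all genes tested. The smallest adjusted p-values were 1.4e-14 for LAMB1, 4.6e-14 for LAMB2, 9.4e-11 for LAMA5 and 1.1e-09 for ITGB8. Of the 14 calls, 7 (ITGA2, ITGAV, ITGB2, ITGB8, LAMA5, LAMB1 and LAMB2) held when the libraries of any 1 replicate label were left out, and without the A1 libraries 8 of 34 members were called. Without the 3 libraries with few genes 18 were called: ITGA4 (adjusted p = 0.031, against 0.11 with them), ITGA6 (0.022, against 0.13), ITGA9 (0.037, against 0.27), ITGAL (0.025, against 0.34) and ITGB1 (5.8e-05, against 0.093) were added, and ITGB4 was lost. Calls rose over all genes as well, to 6279 from 5629.

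Late minus early asks what the longest exposures left behind relative to the shortest. Of the main laminin chains LAMA5, LAMB1 and LAMB2 were lower after the longest exposures, and LAMA1 and LAMC1 did not pass. A few receptor subunits of fibronectin and vitronectin type were higher, others of this type did not pass, and ITGB5, a partner of alphaV, was lower. Of the 34 members 9 fell, where 15.8% of all genes did, and 4 rose, where 14.3% did. The share of members that rose was near that of all genes. The 9 were LAMA5, LAMB1, LAMB2, LAMB3, ITGA2, ITGA3, ITGA10, ITGB2 and ITGB5, and the 4 were ITGA5, ITGA8, ITGAV and ITGB8. Of these 13 calls, 6 (ITGA2, ITGA8, ITGB8, LAMA5, LAMB1 and LAMB2) held when the libraries of any 1 replicate label were left out. The median log2 difference was −0.19 over the 34 members and −0.042 over all genes tested; it was −0.46 over the 12 laminins, of which 4 fell and none rose, and −0.067 over the 22 integrins. The 3 window comparisons share libraries with each other and are not independent.

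LAMA5 encodes the alpha5 chain, the alpha chain of widespread embryonic laminins. It ran between 9.22 and 20.6 TPM in the late window (median 15.3) and between 32.1 and 72.0 TPM in the early window (median 41.1). All 12 late libraries lay below all 12 early ones, with a log2 difference of −1.56 ± 0.14 (SE; limma adjusted p = 1.3e-12). At 2 h, where it was highest, the libraries gave 64.4, 72.0 and 62.5 TPM, and at 72 h 12.2, 20.6 and 15.5 TPM. First day minus early was −0.96 ± 0.14 (adjusted p = 7.5e-07) and late minus first day −0.61 ± 0.14 (adjusted p = 0.0016). The later of these falls was lost without the A1 libraries (adjusted p = 0.28) or the A2 libraries (adjusted p = 0.077).

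LAMB1 encodes the beta1 chain of most embryonic laminins and followed a different path. It ran between 37.6 and 140.5 TPM in the late window (median 102), between 196 and 325 TPM in the first-day window (median 266) and between 145 and 264 TPM in the early window (median 207). All late libraries lay below all of both other windows, whereas the first-day and early libraries overlapped. Late minus early was −1.15 ± 0.12 (adjusted p = 3.5e-11) and late minus first day −1.47 ± 0.12 (adjusted p = 8.6e-14). The mean was highest at 18 h, with 325, 295 and 315 TPM, and lowest at 54 h, with 70.3, 65.1 and 89.3 TPM. Its rise on the first day was small, 0.32 ± 0.12 (adjusted p = 0.045), and was lost when the libraries of any 1 replicate label were left out (adjusted p from 0.13 to 0.18) or without the 6, 30 and 54 h exposures (adjusted p = 0.12).

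LAMB2 encodes the beta2 chain, best known from laminins of the kidney filter and the nerve-muscle synapse. It fell within the first 12 h: the libraries gave 146, 133 and 129 TPM at 2 h, 84.3, 73.4 and 71.2 TPM at 8 h and 44.4, 37.2 and 29.4 TPM at 24 h. In the first-day window it ran between 28.0 and 55.8 TPM (median 40.3), below every library of the early window at 71.2 to 146 TPM (median 92.6), a log2 difference of −1.26 ± 0.11 (adjusted p = 1.7e-12). The lowest mean was at 30 h, with 25.9, 16.7 and 18.9 TPM. In the late window it was back at 39.4 to 73.0 TPM (median 55.3), which was 0.40 ± 0.11 above the first-day window (adjusted p = 0.0094) and 0.87 ± 0.11 below the early one (log2 difference −0.87, adjusted p = 1.5e-08). The later rise did not pass without the A1 libraries (adjusted p = 0.075) or without the B1 libraries (adjusted p = 0.16).

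**Figure D2:**
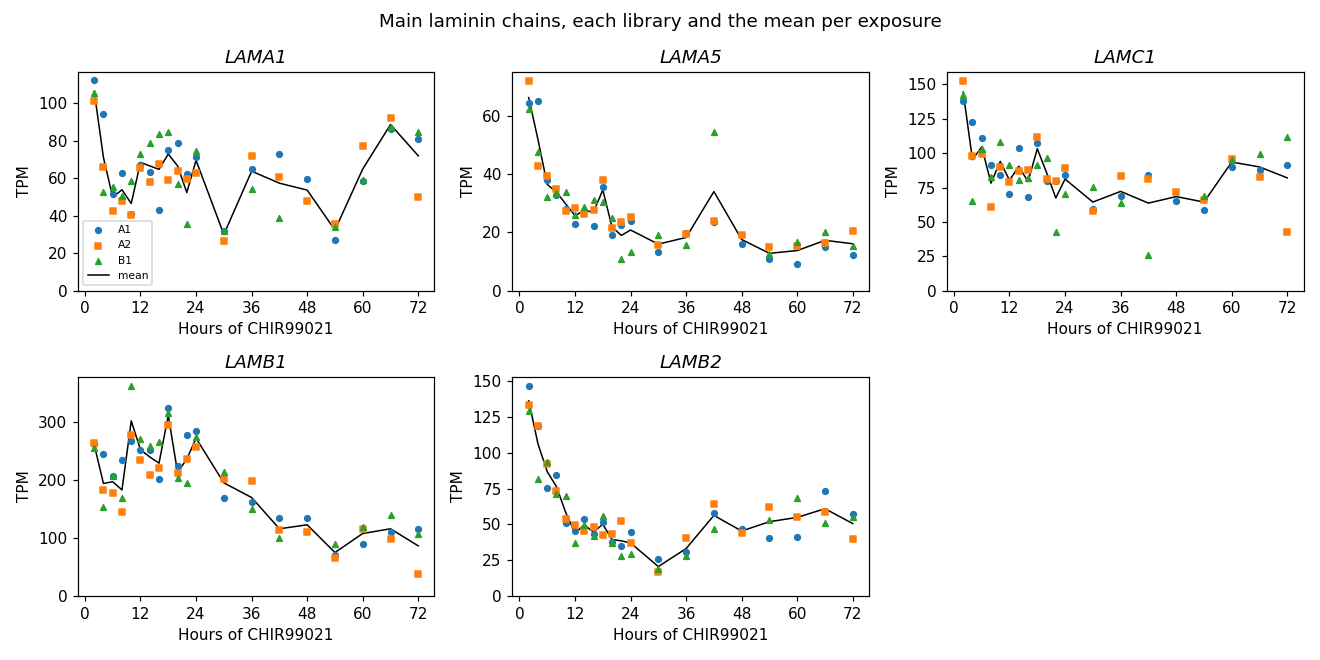
TPM of the 5 main laminin chains in each library (points, by replicate label) and the mean per exposure (line) against hours of CHIR99021. LAMB2 falls within the first 12 h. LAMB1 is lower at 8 h than at 2 h, has its highest mean at 18 h and falls again after 24 h. LAMA1 dips at 30 and 54 h.

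LAMA1 and LAMC1 did not pass in any of the window comparisons. LAMA1, whose alpha1 chain forms the first laminin of the embryo, ran between 27.0 and 92.2 TPM in the late window (median 68.3) and between 42.4 and 113 TPM in the early window (median 59.1), with a log2 difference of −0.15 ± 0.12 (adjusted p = 0.39). LAMC1, the gamma1 chain shared by most laminins, ran between 42.9 and 112 TPM late (median 89.0) and between 61.1 and 153 TPM early (median 102). Its difference of −0.34 ± 0.14 (adjusted p = 0.058) was near the threshold and passed without the 3 libraries with few genes (−0.30, adjusted p = 0.0070) and under median-ratio scaling (−0.39, adjusted p = 0.017). LAMA2 and LAMA4, the alpha chains of muscle and vessel basement membranes, LAMB4 and LAMC3 did not pass in these comparisons and stayed at 12.1 TPM or less in every library.

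The makeup of the laminin alpha and beta chains is given here as shares of the summed TPM of each class, described with no test; LAMA1, LAMB1 and LAMC1 were the main chain of their class in each window by mean share. LAMB1 was 62.8% ± 7.0 of beta chain transcripts in the late window, 86.2% ± 2.4 in the first-day window and 67.2% ± 3.7 in the early window (SD, n = 12 each), and LAMB2 was 37.1%, 13.8% and 32.5% in the same order. The LAMB1 share ranged from 48.8% to 73.3% in the late window and from 60.4% to 73.4% in the early window, and the summed beta chains were 151 ± 34.3 TPM in the late window and 311 ± 66.0 TPM in the early one. Among alpha chains LAMA1 was 77.2% ± 7.6 late, 70.4% ± 6.3 on the first day and 58.1% ± 4.1 early, and LAMA5 was 19.6%, 25.6% and 39.6%. LAMC1 was 97.1% of gamma chain transcripts late, 98.5% on the first day and 97.3% early.

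**Figure D3:**
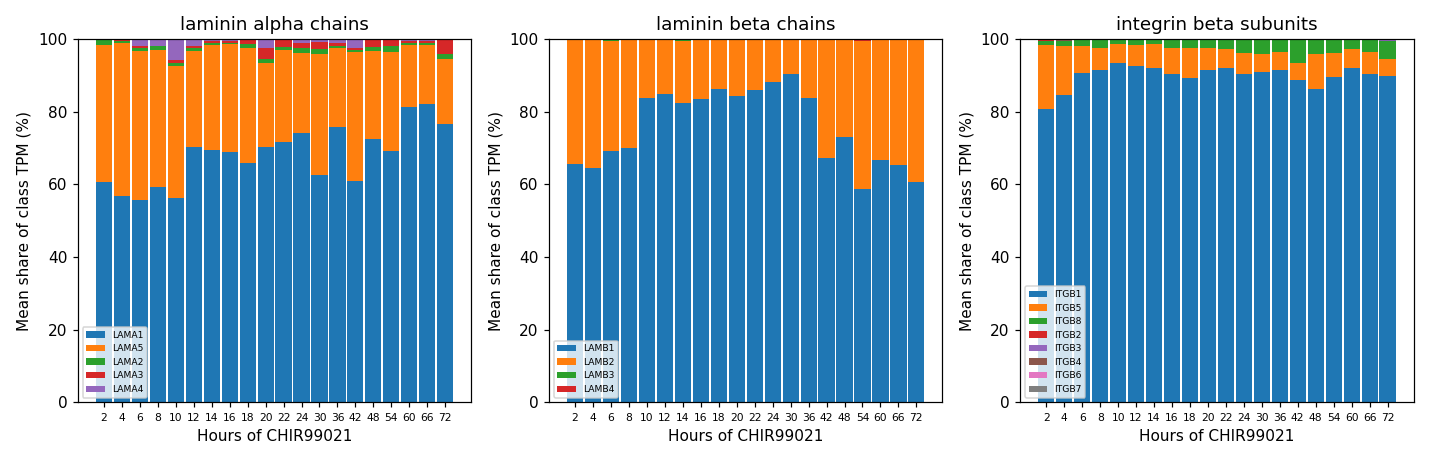
Mean share, in percent of the summed TPM of a class, of each laminin alpha chain, laminin beta chain and integrin beta subunit at each exposure (stacked bars, 3 libraries per exposure and 2 at 48 h). LAMB1 fills most of the beta bars on the first day, where LAMB2 averages 13.8%, and ITGB1 stays above 80% of the integrin beta subunits.

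The 4 integrin subunits that were higher after long exposure belong to receptors of the RGD sequence found in fibronectin and vitronectin. Not all such subunits rose: ITGA2B (0.015, adjusted p = 0.98) and ITGB3 (0.23, adjusted p = 0.28) did not pass, and ITGB5 fell. ITGB8 encodes the beta8 subunit, which pairs with alphaV and activates latent TGF-beta. It ran between 6.91 and 29.6 TPM in the late window (median 18.0) and between 2.96 and 14.4 TPM in the early window (median 7.15). Of the 12 late libraries, 60 h A1 at 6.91 TPM alone lay below the highest early one, and the log2 difference was 1.21 ± 0.19 (adjusted p = 1.1e-06). The libraries gave 4.60, 7.11 and 2.96 TPM at 2 h, 17.9, 19.7 and 18.7 TPM at 24 h and 23.7, 23.5 and 25.3 TPM at 72 h. First day minus early was 0.80 ± 0.19 (adjusted p = 0.0013), and without the A1 libraries its adjusted p was 0.052.

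ITGAV, the alphaV partner of ITGB8 and ITGB5, ran between 57.0 and 92.2 TPM in the late window (median 73.5) and between 33.9 and 62.3 TPM in the early window (median 53.8). The windows overlapped only between 57.0 and 62.3 TPM, and the log2 difference was 0.50 ± 0.14 (adjusted p = 0.0042; 0.064 without the A2 libraries). ITGA5, the fibronectin receptor subunit, ran between 15.9 and 32.8 TPM late (median 24.9) and between 3.29 and 25.7 TPM early (median 15.2), a difference of 0.66 ± 0.22 (adjusted p = 0.017). That call was lost without the A2 libraries (adjusted p = 0.055) or the B1 libraries (adjusted p = 0.29). ITGA8 was called at 0.69 ± 0.15 (adjusted p = 4.2e-04) but was above 0 in 9 of 59 libraries only, with 1.72, 2.56 and 6.07 TPM at 60 h and 0 in all 12 early libraries.

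ITGB5, the other abundant beta partner of alphaV, went the other way. It gave 79.3, 92.3 and 113 TPM at 2 h, 71.7, 50.1 and 77.6 TPM at 4 h and 32.0, 19.8 and 28.5 TPM at 8 h, and 25.5, 10.4 and 36.8 TPM at 72 h. Late minus early was −0.80 ± 0.30 (adjusted p = 0.037). The fall lay at the start: without the 2 h exposure, left out after the values were seen, the difference was −0.49 (adjusted p = 0.29). It was also lost without the A1 or the A2 libraries (adjusted p = 0.22 and 0.17). Among integrin beta subunits ITGB8 was 3.81% ± 1.41 of the summed TPM late and 1.65% ± 0.74 early, and ITGB5 5.56% ± 1.14 late and 11.2% ± 5.0 early (SD, n = 12 each), described with no test. ITGB3 and ITGB6, further partners of alphaV, did not exceed 1.81 TPM in any library.

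The collagen receptor subunit ITGA2 fell. It ran between 1.78 and 11.6 TPM in the late window (median 9.02) and between 1.44 and 33.7 TPM in the early window (median 20.9). The windows overlapped through 2 early libraries of 8 h, A2 with 1.44 TPM and B1 with 10.5 TPM, and the log2 difference was −1.24 ± 0.24 (adjusted p = 7.0e-05). ITGA1, another collagen receptor subunit, averaged 11.9 ± 5.5 TPM late and 16.9 ± 5.0 TPM early (SD, n = 12 each) and did not pass (−0.67 ± 0.34, adjusted p = 0.14); it was at 0 in 2 of the libraries with few genes, 42 h B1 and 72 h A2. ITGA10 fell by 0.40 ± 0.15 (adjusted p = 0.039) at levels of at most 1.67 TPM, and that call was lost without the A1 or the B1 libraries. ITGA11 did not exceed 4.65 TPM and did not pass.

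The laminin receptor subunits did not move together. ITGA3, the receptor for laminins with alpha3 or alpha5 chains, ran between 0 and 8.10 TPM late (median 2.83) and between 2.06 and 17.8 TPM early (median 6.00), with a log2 difference of −1.34 ± 0.36 (adjusted p = 0.0036; 0.076 without the A1 libraries). ITGA6 ran between 25.0 and 109 TPM late (median 68.0), between 71.1 and 101 TPM in the first-day window (median 87.0) and between 16.1 and 112 TPM early (median 63.0). It passed as higher in first day minus early (0.46 ± 0.16, adjusted p = 0.030) and as lower in late minus first day (−0.59 ± 0.16, adjusted p = 0.0069), but not in late minus early (−0.13 ± 0.16, adjusted p = 0.58). Without the 6, 30 and 54 h exposures neither ITGA6 call passed, at 0.48 (adjusted p = 0.061) for first day minus early and −0.28 (adjusted p = 0.35) for late minus first day. Single exposures turned the first-day direction, with −0.096 for 24 h minus 2 h and −0.50 for 30 h minus 6 h. ITGA7 dipped on the first day, at 7.71 to 18.5 TPM (median 11.6), against 9.14 to 36.0 TPM early (median 18.9).

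ITGB1, the partner of all the laminin and collagen receptor subunits above, did not pass. It averaged 462 ± 80.2 TPM in the late window, 444 ± 36.9 TPM in the first-day window and 415 ± 36.0 TPM in the early window (SD, n = 12 each), and late minus early was 0.14 ± 0.09 (adjusted p = 0.24). The lowest late value, 293 TPM, came from the 72 h A2 library, and without the 3 libraries with few genes the difference was 0.24 (adjusted p = 1.4e-04), so its call depends on them. Without those libraries 5 members were higher and 12 lower in late minus early, with ITGB1 added to the higher ones and LAMC1 and ITGAL among those added to the lower ones. Calls over all genes rose to 5624 from 4606. ITGB1 was 90.5% of integrin beta subunit transcripts late, 90.7% on the first day and 86.8% early.

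**Figure D4:**
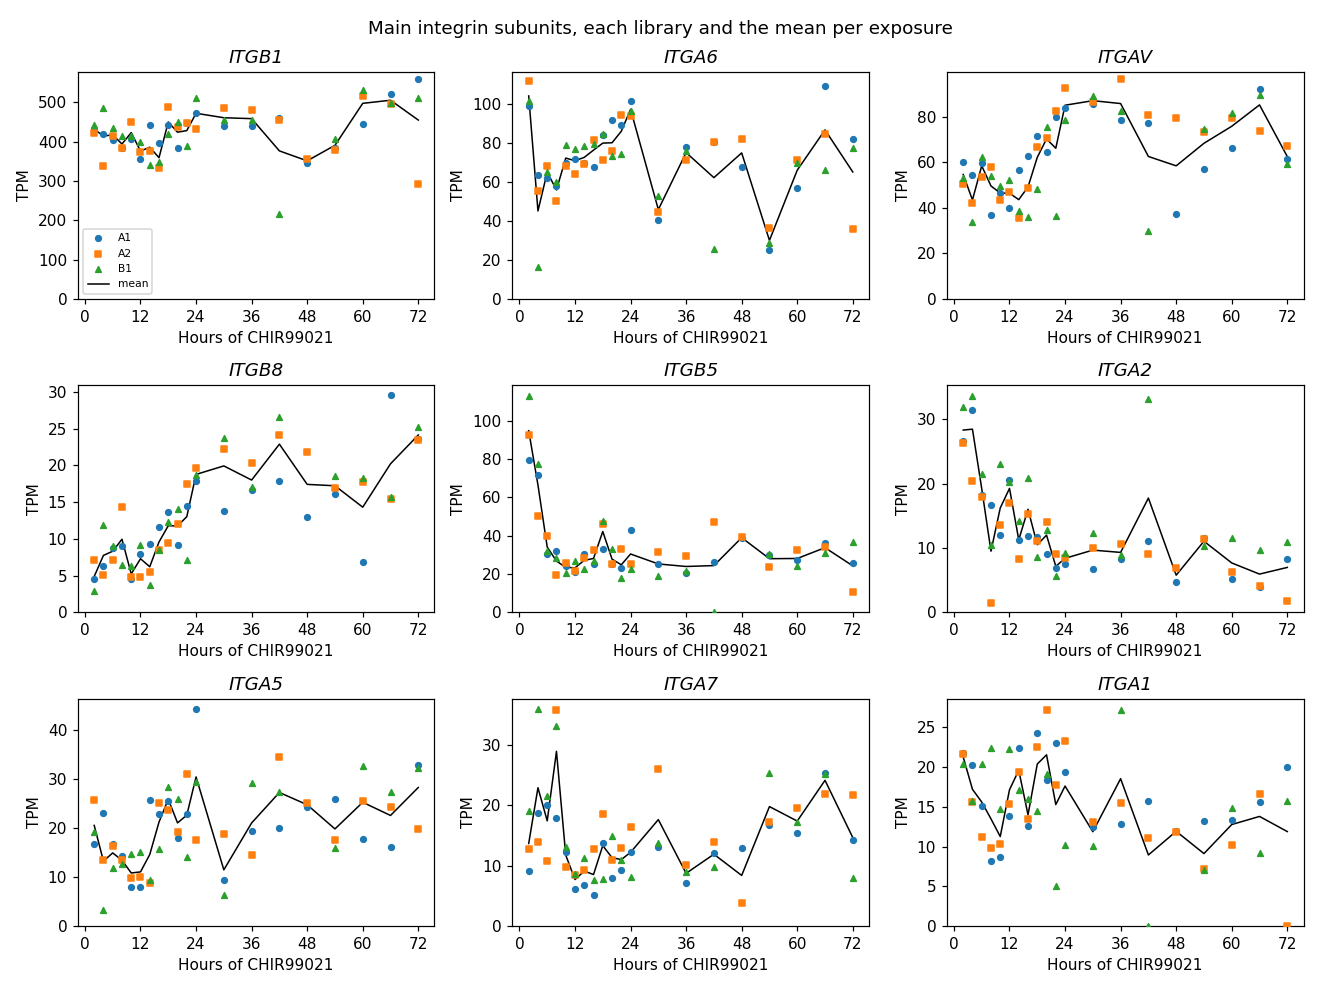
TPM of 9 integrin subunits in each library (points, by replicate label) and the mean per exposure (line) against hours of CHIR99021. ITGB8 is lowest at 2 h and highest at 72 h, ITGB5 falls within the first 8 h, and ITGA6 is lowest at 54 h, with 25.0, 36.5 and 28.8 TPM.

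Low members were also called, on few libraries. LAMB3 fell by 0.71 ± 0.18 (adjusted p = 0.0018) and was above 0 in 15 of 59 libraries, none of them late. That call was lost without the A2 libraries. ITGB2 fell by 0.45 ± 0.14 (adjusted p = 0.010) and was above 0 in 5 libraries of 2 and 4 h and in 3 others. Its late minus early call was lost when the libraries of any 1 replicate label were left out. It was also lost without the 2 h exposure (adjusted p = 0.50). ITGB4 was called over the course only (adjusted p = 0.045), a call lost without the 3 libraries with few genes (adjusted p = 0.20).

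First day minus early asks what the later hours of the first day added. Here 7 of 34 members rose, where 10.5% of all genes did, and 6 fell, where 9.45% did, and the median log2 difference was −0.14 over the members and 0.010 over all genes. ITGA4, ITGA5, ITGA6, ITGAV, ITGB8, LAMA3 and LAMB1 rose, and ITGA2, ITGA7, ITGB2, LAMA5, LAMB2 and LAMB3 fell. ITGA4, the alpha4 subunit that binds VCAM1 and fibronectin, ran between 2.33 and 23.7 TPM on the first day (median 8.92) and between 0.920 and 15.1 TPM early (median 1.53), a difference of 1.34 ± 0.43 (adjusted p = 0.020). Of the early libraries, 4 h B1 and 8 h A2 stood above 4 TPM, with 15.1 and 13.1 TPM. LAMA3 rose by 0.96 ± 0.25 (adjusted p = 0.0043), though the highest first-day library had 3.87 TPM. Of the 13 calls, those of LAMA5 and LAMB2 held when the libraries of any 1 replicate label were left out, and the other 11 were lost in at least one such omission. Without the 3 libraries with few genes 8 members were higher and 8 lower, with ITGB1 (adjusted p = 0.044, against 0.49 with them), ITGB5 (1.1e-04, against 0.11) and LAMC1 (0.0014, against 0.13) added. Calls over all genes rose to 4216 from 3057.

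Late minus first day asks what the following 2 days added. Here 2 of 34 members rose, where 5.43% of all genes did, and 5 fell, where 7.08% did, and the median log2 difference was −0.12 over the members and −0.041 over all genes. ITGA7 (0.62 ± 0.20, adjusted p = 0.035) and LAMB2 rose, and ITGA3, ITGA4, ITGA6, LAMA5 and LAMB1 fell. ITGA4 fell to between 0 and 17.2 TPM in the late window (median 2.57), against 2.33 to 23.7 TPM on the first day, by 1.30 ± 0.43 on the log2 scale (adjusted p = 0.035). ITGA3 fell by 1.08 ± 0.36 (adjusted p = 0.042), and both calls were lost under quantile normalization (adjusted p = 0.081 for ITGA4 and 0.087 for ITGA3). Without the 3 libraries with few genes 3 members were higher and 6 lower, with ITGA8 (adjusted p = 0.029, against 0.066 with them) added to the higher and LAMA3 (0.0089, against 0.21) to the lower ones. Calls over all genes rose to 2873 from 1915. LAMB1 was the only member of the 7 called whose call held when the libraries of any 1 replicate label were left out.

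**Figure D5:**
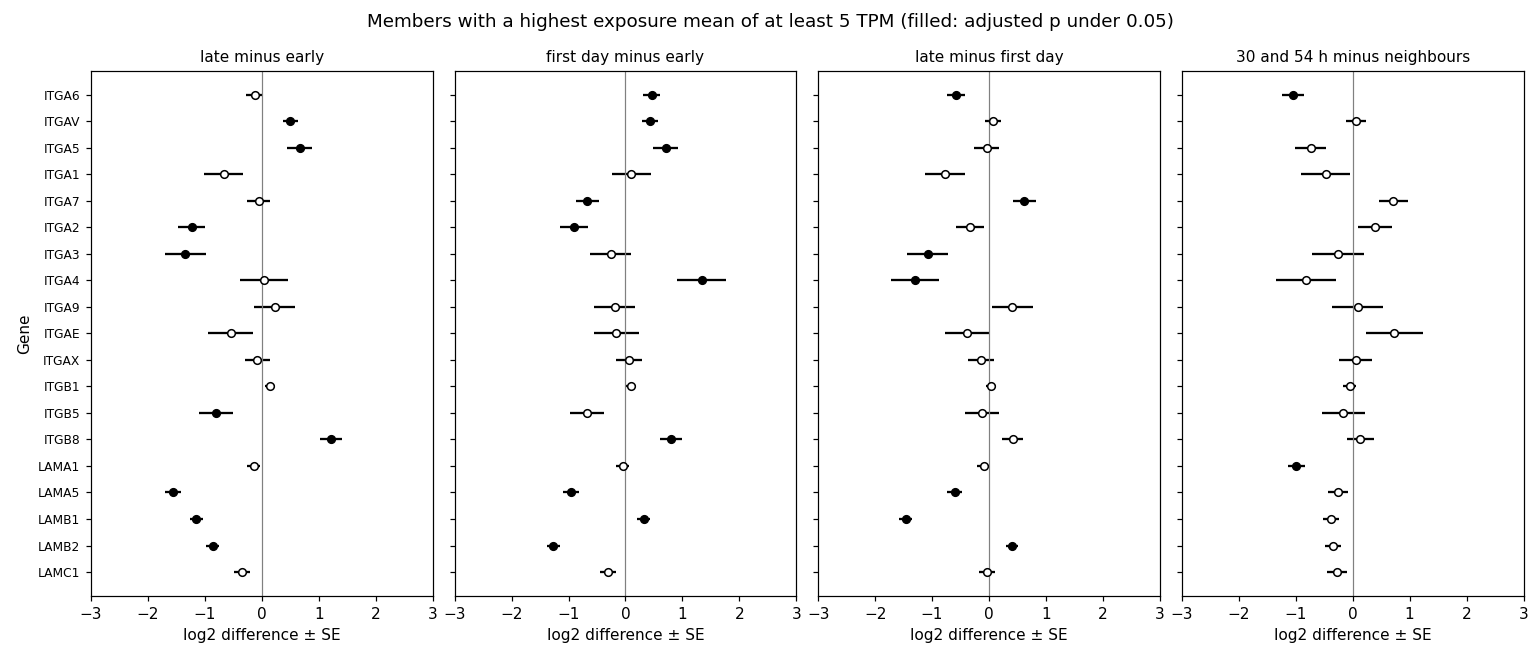
Log2 differences on the log2(TPM + 1) scale with their SE (bars) for 19 members with a highest exposure mean of at least 5 TPM in the 4 comparisons, filled where the adjusted p is under 0.05. LAMB1 lies at 0.32 in first day minus early and at −1.47 in late minus first day, and LAMB2 at −1.26 and 0.40.

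The 30 and 54 h exposures, each a whole number of days after 6 h, were set against the exposures 6 h before and after them, 24, 36, 48 and 60 h. LAMA1 and ITGA6, a laminin chain and a laminin receptor subunit, were lower there. LAMA1 had 31.6, 26.5 and 32.0 TPM at 30 h and 27.0, 35.8 and 34.2 TPM at 54 h, against 47.9 to 77.2 TPM in the 11 neighbouring libraries (median 63.0). ITGA6 had 40.4, 44.4 and 52.9 TPM at 30 h and 25.0, 36.5 and 28.8 TPM at 54 h, against 57.2 to 101 TPM in the neighbouring libraries (median 76.1). For both genes all 6 libraries lay below all 11 neighbours, with log2 differences of −0.99 ± 0.15 for LAMA1 (adjusted p = 3.2e-06) and −1.05 ± 0.19 for ITGA6 (adjusted p = 9.3e-05). The 6 h exposure was not part of this comparison, and a daily repeat was not tested. ITGA6 had 63.8, 55.6 and 16.1 TPM at 4 h, 62.1, 68.1 and 65.0 TPM at 6 h and 57.8, 50.1 and 60.1 TPM at 8 h. LAMA1 had 94.4, 65.9 and 52.9 TPM, 51.7, 42.4 and 55.5 TPM and 62.8, 48.1 and 50.8 TPM in the same order.

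Of the 34 members 2 were lower in this comparison, where 4.53% of all genes were, and 1 was higher, where 9.77% were. The higher one was ITGA2B, the platelet integrin alpha subunit, at 0 to 8.57 TPM in the 6 libraries and 0 to 2.43 TPM in the 11 neighbours (1.30 ± 0.34, adjusted p = 0.0065), a call lost without the A2 libraries (adjusted p = 0.42). LAMB1, LAMB2 and ITGA5 passed as lower too under quantile or median-ratio scaling and without the 3 libraries with few genes, which makes 5 lower. Without those libraries ITGA7 passed as higher (adjusted p = 0.021, against 0.051 with them), and calls over all genes rose to 3737 from 2189. ITGB1 averaged 426 ± 42.1 TPM in the 6 libraries and 454 ± 60.4 TPM in the 11 neighbours (adjusted p = 0.82). Of 28 integrin adaptors tested 7 were higher and none lower, with vinculin (VCL), an actin link of focal adhesions chosen for mention after its values were seen, at 1.03 ± 0.14 (adjusted p = 7.5e-07). The summed TPM of 10 neuron markers was 289 to 455 in the 6 libraries and 464 to 607 in the neighbours, without overlap. The sum does not stand for each marker, as 1 of the 10 passed as lower and none as higher. The part of the neuron markers in the result was not tested. The median log2 difference was −0.044 over the members and 0.054 over all genes.

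Of 19 tested genes for partners of laminin in the basement membrane, 14 were lower and 3 higher in late minus early, where 15.8% of all genes were lower and 14.3% higher. Their median log2 difference was −0.64, against −0.042 over all genes. COL4A1, a chain of the collagen IV network, averaged 121 ± 15.4 TPM late and 624 ± 111 TPM early (log2 difference −2.35 ± 0.12, adjusted p = 5.5e-21). BCAM, a receptor for laminins with the alpha5 chain, averaged 37.7 ± 14.2 TPM late and 322 ± 51.2 TPM early (−3.17 ± 0.17, adjusted p = 9.8e-20). The 2 with the largest rise were NTN4, a netrin that binds laminin gamma chains, at 30.2 ± 11.5 TPM late and 3.28 ± 2.11 TPM early, and FREM1, of the Fraser complex, at 19.7 ± 7.9 TPM late and 3.35 ± 1.54 TPM early (SD, n = 12 each).

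Of 27 other integrin ligands tested, 11 rose, where 14.3% of all genes did, and 5 fell, where 15.8% did, with a median of 0.35. The share of ligands that fell was near that of all genes. VCAM1, the ligand of alpha4 integrin, averaged 37.3 ± 19.1 TPM late and 3.78 ± 4.68 TPM early (3.26 ± 0.29, adjusted p = 7.7e-13), and POSTN (periostin), a matrix ligand of alphaV integrins, rose by 1.04 ± 0.41 (adjusted p = 0.047). CDH1 (E-cadherin), the ligand of ITGAE, averaged 0.671 ± 1.02 TPM late and 93.8 ± 73.0 TPM early (−5.53 ± 0.37, adjusted p = 1.9e-16), and VTN (vitronectin) fell by 2.13 ± 0.46 (adjusted p = 3.0e-04). Of 28 adaptors tested, 8 fell and none rose, with a median of −0.039. PTK2B, a kinase related to focal adhesion kinase, fell by 2.29 ± 0.35 (adjusted p = 8.1e-07) and TLN2 (talin 2) fell by 1.34 ± 0.26 (adjusted p = 4.8e-05). Of 13 membrane partners, 4 fell and 3 rose, with SDC4 (syndecan 4) at −1.74 ± 0.12 and SLC3A2 at −0.78 ± 0.15, and CD47 at 1.87 ± 0.15 and CD82 at 1.19 ± 0.47.

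Epithelial markers fell mainly on the first day. The summed TPM of 12 such genes was 487 to 798 in the late window (mean 584) and 459 to 1271 in the first-day window (mean 674). In the early window it was 1448 to 3804 (mean 2402). All 12 were lower in late minus early, where 15.8% of all genes were, and in first day minus early, where 9.45% were. In late minus first day 1 of the 12 was lower, where 7.08% of all genes were. LAMA5 and LAMB2 also fell on the first day, whereas LAMB1 was at 0.32 there and at −1.47 in late minus first day. KRT8 averaged 286 ± 74.2 TPM late and 1049 ± 285 TPM early (SD, n = 12 each), and none of the 12 was at 0 in every library. Endoderm markers summed to 85.1 TPM late and 390 TPM early, with SOX17 at 0 throughout, and neuron markers to 476 TPM late and 282 TPM early. Their part in the laminin and integrin results was not tested.

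Across the 20 exposure means some members ran alike, which is given as a description. All members were read in the same libraries, and culture length grew with exposure. Each point is a mean of 3 libraries or, at 48 h, of 2. On log2(TPM + 1), Pearson's r was 0.76 for ITGA2 and LAMA5, 0.75 for ITGB5 and LAMC1, 0.73 for LAMA5 and LAMB2, 0.72 for ITGAV and ITGB8 and 0.66 for ITGA6 and LAMA1. It was 0.0089 for LAMB1 and LAMB2, the alternative beta chains, and −0.16 for ITGAV and ITGB5. These pairs were picked for mention and are not the highest in order. ITGAV and ITGB1 at 0.71 and ITGA1 and LAMB1 at 0.69 lay above ITGA6 and LAMA1. Other pairs ran opposite, such as ITGB8 and LAMA5 at −0.70.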

How the data were processed

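RNA was sequenced from 59 libraries of CHIR99021-exposed neural stem cells. The authors deposited TPM values for 19084 gene symbols, made with CASAVA 1.8.2, Bowtie 0.12.8 and RSEM 1.2.3 on hg19 per the submitters' processing notes; the sources used here do not name an annotation. RSEM apportions reads shared by related or overlapping genes by estimation, so such genes are uncertain. Groups and replicates came from the labels. Values were transformed to log2(TPM + 1) and tested with limma 3.58.1 under R 4.3.3 (moderated tests with an intensity trend, Benjamini-Hochberg adjustment over the 15305 genes with at least 1 TPM in at least 3 libraries, threshold 0.05). For the course, hours entered as a natural spline of 4 df and an F-test was taken; windows were compared by contrasts in a fit of 20 exposure means with 39 residual df. Differences of log2(TPM + 1) understate fold changes where TPM is low. Members and gene lists were chosen with earlier results of these data known. Members are named throughout, except that the result of 1 is not reported here; of each pathway list the 2 largest falls and 2 largest rises in late minus early are named, among genes past the threshold with at least 5 TPM in a window. The tests were tried on simulated data. Alternatives varied pseudocount, filter, scaling, spline, windows and a replicate block, and left out replicate labels, libraries and exposures. Promoter sequences are from RefSeq. Figures used matplotlib 3.10.9 in Python 3.11.15.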

Additional observations from a re-analysis of the deposited data

How the results depend on the processing

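Depth is unknown, 48 h keeps 1 library without A1 or A2 (assumed to vary like the others), and low members called on few libraries are the least certain. Same-numbered labels paired the libraries weakly at most. Deviations from the exposure means had median correlations of 0.0066 (A1), 6.8e-04 (A2) and 0.0076 (B1) within labels and −0.0023 between them. Of 59 libraries 32 correlated best with their own label, above the 1 in 3 that 3 unrelated labels would give. A weak pairing by label may therefore be present. With the replicate block no call of a member changed, and the counts over all genes were 5616 for the course, 4610, 3050 and 1915 for the windows and 2157 for 30 and 54 h, against 5629, 4606, 3057, 1915 and 2189 without it. Leaving out 1 replicate label gave, for the course, 8 to 13 members (14 with all) and 3232 to 5317 genes. For late minus early it gave 2 to 4 members higher, 5 to 8 lower and 2975 to 4247 genes; for first day minus early 1 to 3 higher, 2 to 5 lower and 1605 to 2427 genes; for late minus first day 0 to 1 higher, 1 to 4 lower and 917 to 1758 genes. For 30 and 54 h it gave 0 to 1 higher, 2 lower and 768 to 1829 genes. Single exposures hold fewer samples and other times, and the cause of their differences was not tested: 72 h minus 2 h gave 1 member higher, 9 lower and 2910 genes, 54 h minus 6 h 0 higher, 4 lower and 1063 genes, 24 h minus 2 h 1 higher, 4 lower and 818 genes, and 30 h minus 6 h 0 higher, 2 lower and 594 genes. 72 h minus 24 h gave 0 higher, 1 lower and 1399 genes, 54 h minus 30 h 1 higher, 1 lower and 182 genes, 30 h alone 0 higher, 3 lower and 688 genes and 54 h alone 0 higher, 3 lower and 1278 genes. Without the 6, 30 and 54 h exposures 4 members were higher in first day minus early and 2 lower in late minus first day; the cause was not tested. Quantile normalization left 3 lower in late minus first day and made 5 lower at 30 and 54 h, as did median-ratio scaling (5), and with no filter 2 were higher there. Without the 3 libraries with few genes 2873 genes were called in late minus first day and 3737 at 30 and 54 h, with 2 members higher and 5 lower; the cause was not tested. In first day minus early some members turned sign without passing: ITGA6 at −0.096 in 24 h minus 2 h, and in 30 h minus 6 h ITGA6 at −0.50, ITGA5 at −0.47, LAMB1 at −0.017 and ITGA7 at 0.0068; the cause was not tested. Without the 2 h exposure, chosen after seeing the data, late minus early had 4 higher and 7 lower and first day minus early 7 higher and 4 lower. No other called value of a member turned sign under the alternatives run.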
